A study of Mus musculus with 10 samples.

Results

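The levels of Saa3, Lcn2 and 8 genes of the NF-κB response were followed in MC3T3-E1 cells cultured with and without β-ecdysterone. The 10 genes were taken by symbol from the 29583 rows of the deposited table, and each had exactly 1 row. They are Saa3 and Lcn2, which encode an acute phase protein and a lipocalin, Nfkbia and Tnfaip3, which encode inhibitors of NF-κB, Nfkb1 and Relb, which encode subunits of it, and Il6, Ptgs2, Icam1 and Vcam1, which are target genes. They were chosen by their measured values in the treated and 0 μM libraries, so the difference between those libraries is given for them as a description without a test.

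MC3T3-E1 is a line of osteoblast precursors from the skull of newborn C57BL/6 mice. The submitters' source label calls the cells stem cells of the bone marrow, and the paper's methods name one subclone of the line. Cells of the third passage were kept in standard medium with 0, 100, 150 or 200 μM β-ecdysterone, a plant steroid, and polyadenylated RNA was sequenced after 5 or 10 days. One library was deposited for each dose and day, so 6 treated libraries stood against 2 libraries at 0 μM, and the doses served as replicates of treatment. A further 2 libraries, A-5 and B-4, carry only the label untreated, without a dose or a day. RNA was extracted with n = 3 according to the protocol, but nothing in the labels ties the single libraries to separate cultures, so p-values measure the spread between these libraries only.

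NF-κB is a family of dimeric transcription factors held in the cytoplasm by IκB proteins. Cytokine and Toll-like receptors activate the IκB kinases, which mark IκB for destruction and let the dimers enter the nucleus. Among the genes switched on are those for IκBα (Nfkbia) and the ubiquitin-editing enzyme A20 (Tnfaip3), which end the response, and those for cytokines, adhesion molecules and acute phase proteins. Many acute phase genes also respond to C/EBP factors and to STAT3 downstream of interleukin 6, and glucocorticoids are known to dampen NF-κB target genes. In bone, NF-κB is known for its part in inflammatory bone loss and in the restraint of osteoblast maturation.

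The libraries held 27108562 to 58218009 counts. A0, A6, B9 and B11 had more than 40000000 counts each, and the other 6 had fewer. Levels are given in CPM, the count scaled to the TMM library size. Where a gene has a count of 0, up to 3 counts remain possible, or 0.0501 to 0.117 CPM depending on the library, for counting error only. Of the untreated libraries, A-5 was near the 0 μM libraries and B-4 near the treated libraries for many of the genes below. For example, Fkbp5, a gene induced by glucocorticoids, had 69.2 and 67.7 CPM at 0 μM, 470.4 to 634 CPM in the treated libraries, 89.0 CPM in A-5 and 959 CPM in B-4. The 2 libraries were kept out of the main comparisons, and their effect as controls is given beside the results they change.

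Markers of the cell type were checked first. The bone matrix genes Col1a1 and Col1a2 had at least 6008 and 9078 CPM in every 0 μM and treated library, and Runx2, a master regulator of osteoblasts, had 95.2 and 88.4 CPM at 0 μM and 190.5 to 262 CPM in treated cells. Alpl, which encodes the alkaline phosphatase of mineralizing osteoblasts, had 0 and 2 counts at 0 μM and 486 to 3460 counts in treated cells. Of 10 osteoblast markers, all tested, 5 were called higher and 1 lower in treated cells. Calls needed a log2 difference larger than 1 and an adjusted p below 0.05. Over all genes tested 13.4% were called higher and 5.98% lower. Ibsp, the gene of bone sialoprotein, had 0.679 and 0.857 CPM at 0 μM and 73.1 to 813 CPM in treated cells, Sp7, the gene of osterix, had 6.13 and 5.045 CPM and 52.5 to 135 CPM, and Dmp1, an osteocyte gene, had 4.175 and 1.78 CPM and 0.263 to 1.74 CPM. The call of Dmp1 was lost without the 0 μM library of day 5. With day in the model, a fit that leaves out a 0 μM library rests on the other day alone. A call lost in this way, here and below, means that the remaining day alone did not give it. Of 11 macrophage markers, 5 were tested and 2 (Lyz2 and Mrc1) were called higher in treated cells. Lyz2 lost its call without the 0 μM library of day 5 (0.59) or the library at 100 μM on day 5 (0.99). Their summed level was 18.0 to 30.7 CPM at 0 μM and 33.1 to 63.6 CPM in treated cells, and nearly all of it was Lyz2. Without Lyz2 the sums were 2.13 to 2.30 and 2.14 to 3.36 CPM. Tyrobp, which myeloid cells express, had no count in any library. Of 9 endothelial markers, 6 were tested and 3 (Cdh5, Tek and Vwf) were called higher, with sums of 2.18 to 2.32 CPM at 0 μM and 6.22 to 8.86 CPM in treated cells, and Cldn5 was at 0 in both 0 μM libraries. Tek lost its call without the 0 μM library of day 5 (0.69). Of 8 adipocyte markers, 4 were tested and Lep was called higher, with sums of 1.97 to 2.18 and 2.72 to 5.63 CPM, and Cfd had no count in any library. Lep lost its call without the 0 μM library of day 5 (edgeR adjusted p = 0.0559). None of these 3 lists had its highest sum at 0 μM. Il1b and Tnf, which encode cytokines that classically trigger NF-κB, were at 0 to 0.0635 CPM at 0 μM. Il1a, the gene of interleukin 1α, was tested and was called lower in treated cells (−1.40, SE 0.45, edgeR adjusted p = 0.0303).

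The regions before the start sites of the genes are shown because Saa3, Il6 and the NF-κB inhibitors are classical targets of C/EBP and NF-κB factors. RefSeq promoter windows on GRCm38.p6 (250 bases before to 50 after a start) were matched for 7 of the 10 genes, all but Nfkb1, Relb and Vcam1. Stretches that lie before a RefSeq start are printed 5′ to 3′ on the strand of the gene. The stretch of Tnfaip3 lies inside the gene as annotated by GENCODE, which begins further upstream at chr10:19015657. The other stretches lie before their genes in GENCODE. Capitals mark matches of the C/EBP motif TTNCNNAA in Saa3 and Ptgs2 and of the degenerate kB consensus in Il6, Nfkbia and Tnfaip3, on either strand. The stretches are chr7:46715701-46715926 (minus strand) for Saa3, chr1:150099881-150100030 (plus) for Ptgs2, chr5:30012964-30013113 (plus) for Il6, chr12:55492648-55492797 (minus) for Nfkbia and chr10:19015411-19015540 (minus) for Tnfaip3.
Saa3: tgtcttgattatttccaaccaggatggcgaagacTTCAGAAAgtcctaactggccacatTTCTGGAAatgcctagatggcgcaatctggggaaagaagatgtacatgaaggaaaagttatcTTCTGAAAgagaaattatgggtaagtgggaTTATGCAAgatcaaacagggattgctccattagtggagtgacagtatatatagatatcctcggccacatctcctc
Ptgs2: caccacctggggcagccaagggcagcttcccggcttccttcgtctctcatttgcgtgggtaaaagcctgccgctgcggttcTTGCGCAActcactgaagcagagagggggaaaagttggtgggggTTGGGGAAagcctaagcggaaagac
Il6: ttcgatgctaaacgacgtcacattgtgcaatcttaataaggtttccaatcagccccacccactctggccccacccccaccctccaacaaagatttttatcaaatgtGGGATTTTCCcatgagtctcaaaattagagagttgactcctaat
Nfkbia: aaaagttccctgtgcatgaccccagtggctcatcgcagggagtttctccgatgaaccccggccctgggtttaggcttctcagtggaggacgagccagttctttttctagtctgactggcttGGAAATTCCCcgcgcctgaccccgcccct
Tnfaip3: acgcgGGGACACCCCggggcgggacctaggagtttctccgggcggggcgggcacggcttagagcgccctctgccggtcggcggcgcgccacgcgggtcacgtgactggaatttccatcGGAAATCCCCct

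The 7 genes had 8 windows. The kB consensus was found in 3 of the 7 genes (Nfkbia, Tnfaip3 and Il6), or 3 of the 8 windows. Of all 32851 RefSeq promoter windows 8.46% hold it. The C/EBP motif was found in 6 of the 7 genes, or 7 of the 8 windows, and 40.7% of all windows hold it. It occurred 4 times before Saa3. It occurred once before the RefSeq start of Lcn2, as TTGCTCAA with its first base 216 bases before that start. This window of Lcn2 lies inside the gene as annotated by GENCODE. The TATA box hexamer TATAAA was found in 3 of the 7 genes, or 3 of the 8 windows, and in 13.6% of all windows. Counted from the RefSeq start, it lay at 20 in Nfkbia (on the opposite strand), at 14 in Icam1 and at −225 in Tnfaip3. The matches of Nfkbia and Icam1 thus lay after the RefSeq start. GENCODE places the start of Icam1 further downstream, at chr9:21015985, so its match lay before that start. The match of Tnfaip3 lay inside the gene as annotated by GENCODE. Matches of different motifs did not overlap. These are matches of letters and not measured binding sites.

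To compare levels between genes, the deposited FPKM values, which scale counts to transcript length and library size, were used. At 0 μM Saa3 stood highest, with 152.5 FPKM on day 5 and 128 FPKM on day 10, followed by Lcn2 (104.2 and 104.6 FPKM) and Vcam1 (102.7 and 94.0 FPKM). Nfkb1 was next at 46.9 and 47.0 FPKM. Nfkbia, Relb, Tnfaip3 and Ptgs2 followed in this order with means of 28.6, 18.7, 15.1 and 11.9 FPKM, and Il6 (2.33 FPKM) and Icam1 (0.438 FPKM) were lowest. The pairs of libraries of neighbours in this order did not overlap. In the treated libraries Lcn2 led, at 44.0 to 165.8 FPKM, and Saa3 was eighth of the 10 at 0.412 to 5.75 FPKM. There the range of Lcn2 overlapped that of Vcam1 (40.5 to 54.0 FPKM), the ranges of Tnfaip3 and Relb overlapped each other, as did those of Ptgs2 and Saa3, and those of Icam1 and Il6.

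Saa3 (ENSMUSG00000040026, chr7:46711998-46715700, minus strand, GRCm38) encodes serum amyloid A3, an acute phase apolipoprotein made outside the liver. It had 98.4 CPM at 0 μM on day 5 and 81.5 CPM on day 10. On day 5 it had 3.68, 1.22 and 2.60 CPM at 100, 150 and 200 μM, and on day 10 it had 1.32, 0.378 and 0.714 CPM. All 6 treated libraries lay far below both 0 μM libraries, at 0.464% to 3.74% of the level of the same day. The treated mean was 1.65 ± 1.25 CPM (SD, n = 6), and the fitted log2 fold change was −6.05 (SE 0.39). Fewer cells that express a gene and less RNA per cell cannot be told apart in these bulk libraries. Counts in the treated libraries were 20 to 111, so their own order rests on few reads. The 3 treated libraries with more than 40000000 counts (A6, B9 and B11) had a mean of 0.77 CPM and the 3 with fewer had a mean of 2.53 CPM. Against the 0 μM library of the same depth class the mean log2 difference was −7.04 among deep and −5.10 among shallow libraries. The deep 0 μM library (A0) was of day 5 and the shallow 0 μM library (B0) of day 10. Each depth class of treated libraries held both days, so these differences mix depth with day. A-5 had 67.9 CPM, and B-4 had 4.20 CPM, just above the highest treated library. With B-4 alone in place of 0 μM the fold change was −1.36.

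**Figure D1:**
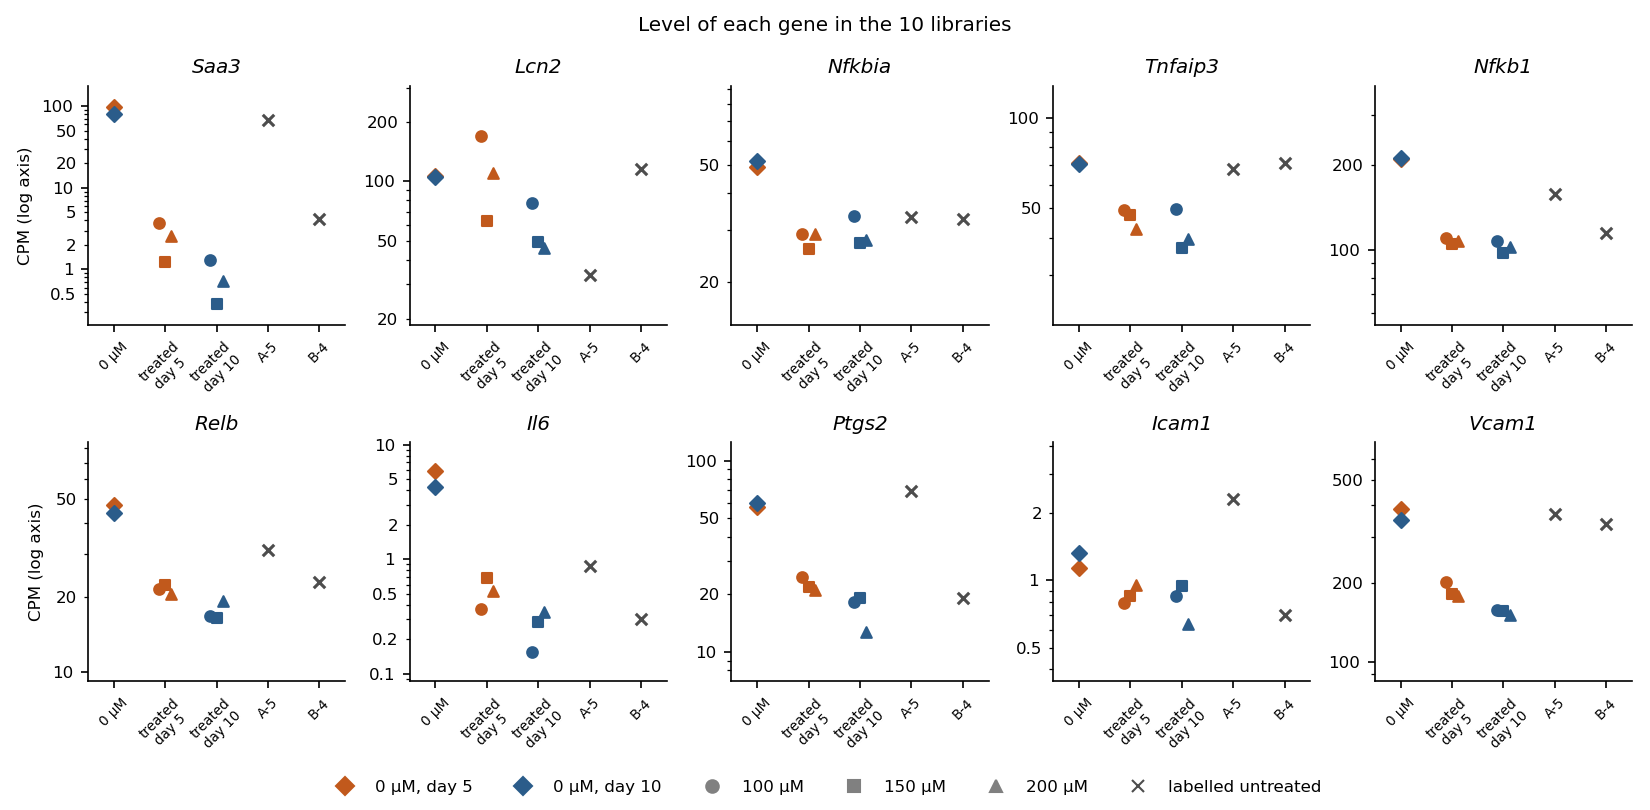
Level of each of the 10 genes in the 10 libraries, in CPM on log axes, with 1 point per library. Diamonds are 0 μM, circles, squares and triangles are 100, 150 and 200 μM, orange is day 5 and blue is day 10, and crosses are the libraries labelled untreated. Saa3 and Il6 are set furthest apart from 0 μM, and Lcn2 alone has treated libraries on both sides of it.

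Il6 (ENSMUSG00000025746, chr5:30013114-30019981, plus strand) encodes interleukin 6, the cytokine that drives the acute phase response. It had 5.83 and 4.28 CPM at 0 μM on days 5 and 10. The treated libraries had 0.364, 0.685 and 0.527 CPM at 100, 150 and 200 μM on day 5 and 0.155, 0.283 and 0.347 CPM on day 10, or 3.63% to 11.7% of the level of the same day. The fitted log2 fold change was −3.67 (SE 0.28), and the treated counts were 4 to 41. A-5 had 0.881 CPM and B-4 had 0.2999 CPM, so both untreated libraries were nearer to the treated than to the 0 μM libraries for Il6. With B-4 alone as the control the fold change was 0.43, in the opposite direction, and with A-5 alone it was −1.13. On the log2(FPKM + 1) scale the fold change was −1.40, since a pseudocount of 1 understates changes of low genes.

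Ptgs2 (ENSMUSG00000032487, chr1:150100031-150108227, plus strand) encodes cyclooxygenase 2, the inducible enzyme of prostaglandin synthesis. It had 57.3 and 60.2 CPM at 0 μM. On day 5 it had 24.6, 21.8 and 21.1 CPM at 100, 150 and 200 μM, and on day 10 it had 18.3, 19.2 and 12.7 CPM. The groups did not overlap, and the log2 fold change was −1.60 (SE 0.16). A-5 had 69.4 CPM, above 0 μM, and B-4 had 19.1 CPM, within the treated range, so that the fold change was 0.05 with B-4 alone as the control.

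Vcam1 (ENSMUSG00000027962, chr3:116109949-116129688, minus strand) and Icam1 (ENSMUSG00000037405, chr9:21015985-21028817, plus strand) encode adhesion molecules that bind leukocyte integrins. Vcam1 had 387 and 351 CPM at 0 μM, 203, 181 and 179.5 CPM at 100, 150 and 200 μM on day 5, and 158, 157 and 152 CPM on day 10. Its log2 fold change was −1.10 (SE 0.08), the treated mean was 172 ± 19.8 CPM (SD, n = 6), and both A-5 (369 CPM) and B-4 (338 CPM) were near 0 μM. Icam1 was low throughout, with 1.14 and 1.33 CPM at 0 μM and 0.637 to 0.955 CPM in treated cells (22 to 51 counts). Its log2 fold change was −0.54 (SE 0.28), and it was 0.27 with B-4 alone as the control, which had 0.6997 CPM. A-5 had 2.316 CPM, above both 0 μM libraries, and with it alone as the control the fold change was −1.46.

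Nfkb1 (ENSMUSG00000028163, chr3:135584655-135691547, minus strand) encodes the p50 subunit and its precursor, and Relb (ENSMUSG00000002983, chr7:19606217-19629438, minus strand) encodes the subunit of the non-canonical pathway. Nfkb1 had 210.1 and 211 CPM at 0 μM and 98.1 to 111 CPM in treated cells, with a log2 fold change of −0.99 (SE 0.08). Its treated libraries differed little from one another (105 ± 4.40 CPM, SD, n = 6). Relb had 47.1 and 43.9 CPM at 0 μM and 16.5 to 22.5 CPM in treated cells, with a log2 fold change of −1.21 (SE 0.10). For both genes A-5 (158 and 31.1 CPM) lay between the groups, and B-4 (115 and 23.0 CPM) lay just above the highest treated library.

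The inhibitors had smaller differences. Nfkbia (ENSMUSG00000021025, chr12:55489410-55492647, minus strand) had 49.0 and 51.3 CPM at 0 μM, 29.1, 25.8 and 29.1 CPM at 100, 150 and 200 μM on day 5, and 33.6, 27.1 and 27.7 CPM on day 10. Its log2 fold change was −0.79 (SE 0.11), and A-5 and B-4 were alike at 33.1 and 32.7 CPM, within the treated range. Tnfaip3 (ENSMUSG00000019850, chr10:19000910-19015657, minus strand) had 71.0 and 70.1 CPM at 0 μM and 36.9 to 49.9 CPM in treated cells. Its log2 fold change was −0.66 (SE 0.12), and A-5 and B-4 had 67.8 and 71.0 CPM, as at 0 μM.

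Lcn2 (ENSMUSG00000026822, chr2:32384633-32388252, minus strand) encodes lipocalin 2, which binds bacterial siderophores and is also secreted by osteoblasts. It had 106 CPM in each of the 0 μM libraries. On day 5 it had 169.9, 63.1 and 110.4 CPM at 100, 150 and 200 μM, and on day 10 it had 77.5, 49.2 and 45.9 CPM. Here the groups overlapped: 4 of 6 treated libraries were below 0 μM of the same day and 2 above it. The log2 fold change was −0.41 (SE 0.35). It was 0.12, in the opposite direction, when the 0 μM library of day 10 was left out, and −0.87 without that of day 5. With day in the model, each of these 2 fits rests on the remaining day alone. Thus 0.12 is the difference on day 5 and −0.87 that on day 10. The 3 treated libraries with more than 40000000 counts (A6, B9 and B11) had a mean of 52.7 CPM, and the 3 with fewer had a mean of 119 CPM. Against the 0 μM library of the same depth class the mean log2 difference was −1.02 among deep and 0.10 among shallow libraries. Here too the 0 μM libraries were of different days (A0 of day 5, B0 of day 10), so these differences mix depth with day. With depth class as a covariate, an alternative added after seeing the data, the fold change was −0.44. A-5 had 33.5 CPM, the lowest of the 10 libraries, and B-4 had 115 CPM, and with A-5 alone as the control the fold change was 1.36.

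**Figure D2:**
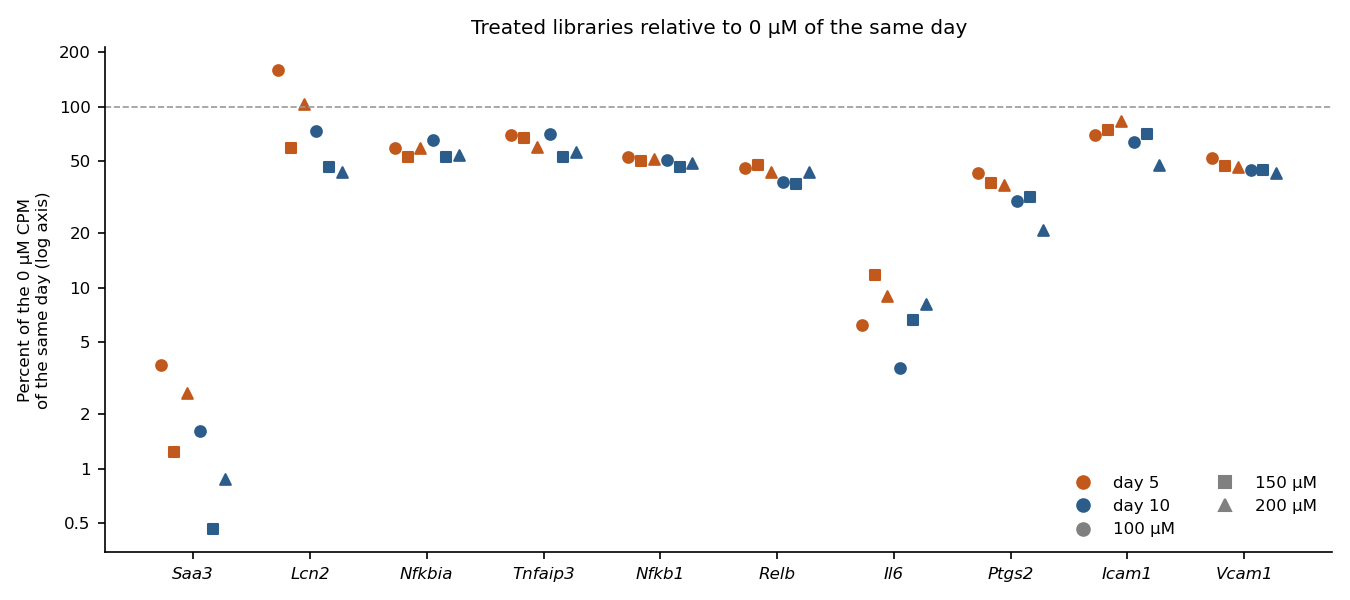
CPM of each gene in the 6 treated libraries as a percentage of the 0 μM library of the same day, on a log axis, with colour for the day, marker for the dose and a dashed line at 100%. Saa3 lies at 3.74% or less and Il6 at 11.7% or less in every treated library, Nfkb1 and Vcam1 lie between 43.2% and 52.7%, and 2 of 6 points of Lcn2 lie above 100%.

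Both 0 μM libraries were above all 6 treated libraries for 9 of the 10 genes, all but Lcn2. The same held for 26.4% of the 16794 genes tested. The 10 genes were chosen on this difference, so their share carries no test. The median difference of the 10 genes in log2 CPM was −1.06. The median fitted fold change of all genes tested, which is another measure, was 0.05. The fitted fold changes of the 10 genes ranged from −0.41 to −6.05, and the 2 largest belonged to Saa3 and Il6. All 10 fold changes were negative under DESeq2, library totals, other filters, limma, no day term and depth class as a covariate. The count was 9 with A-5 alone or with both untreated libraries as the control, 9 without the 0 μM library of day 10, and 7 with B-4 alone as the control.

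To see whether the treated libraries differed among themselves, day 10 was compared with day 5 within them, with dose in the model (edgeR's quasi-likelihood test with Benjamini-Hochberg adjustment over all genes). The genes were chosen for their difference from 0 μM, with earlier results of these libraries known, so it cannot be stated that this contrast is independent of the choice. None of the 10 passed an adjusted p of 0.05. Of 16664 genes tested, 0.552% were called lower and 1.49% higher on day 10. By DESeq2 2 of the 10 genes were called, Saa3 and Vcam1, both lower on day 10, and it called 2.7% of all genes tested lower. At an unadjusted p under 0.05, 6 of the 10 were lower on day 10 and 0 higher, and 7.75% of all genes tested were lower in this way. Saa3 had the largest difference, with 2.499 ± 1.23 CPM on day 5 and 0.804 ± 0.478 CPM on day 10 (SD, n = 3 each) and a log2 fold change of −1.67 (SE 0.49, edgeR adjusted p = 0.133). Lcn2 had 115 ± 53.5 and 57.5 ± 17.4 CPM and a fold change of −0.998 (SE 0.27, edgeR adjusted p = 0.106). Il6 differed by −1.03 (SE 0.44), Ptgs2 by −0.44 (SE 0.14), Relb by −0.30 (SE 0.12) and Vcam1 by −0.27 (SE 0.09), with edgeR adjusted p values of 0.291, 0.155, 0.245 and 0.181. All 3 libraries of day 10 were below all 3 of day 5 for 4 of the 10 genes (Il6, Ptgs2, Relb and Vcam1), and for 10.4% of all genes tested. Nfkbia (0.07, SE 0.12), Nfkb1 (−0.07, SE 0.09), Tnfaip3 (−0.15, SE 0.11) and Icam1 (−0.10, SE 0.33) had smaller differences, with edgeR adjusted p values of 0.815, 0.763, 0.551 and 0.918.

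The call on Lcn2 depended on single libraries. Without the library at 150 μM on day 5, which had more than 40000000 counts, Lcn2 was called (edgeR adjusted p = 0.00548), as were 0.856% of all genes tested in the same direction. With the 3 doses as a block, which pairs the days by dose, Saa3 and Lcn2 were called lower, and so were 1.36% of all genes. With every gene of at least 1 count kept Saa3, Lcn2 and Ptgs2 were called lower, and so were 2.58% of all genes. These fits thus called more genes over the whole table as well. Scaling by library totals moved the median difference of all genes from −0.00178 to −0.129 and turned the split of calls from 249 higher and 92 lower to 161 higher and 256 lower. On that scale all 10 genes were lower on day 10, Nfkbia at −0.05 included, and none was called.

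**Figure D3:**
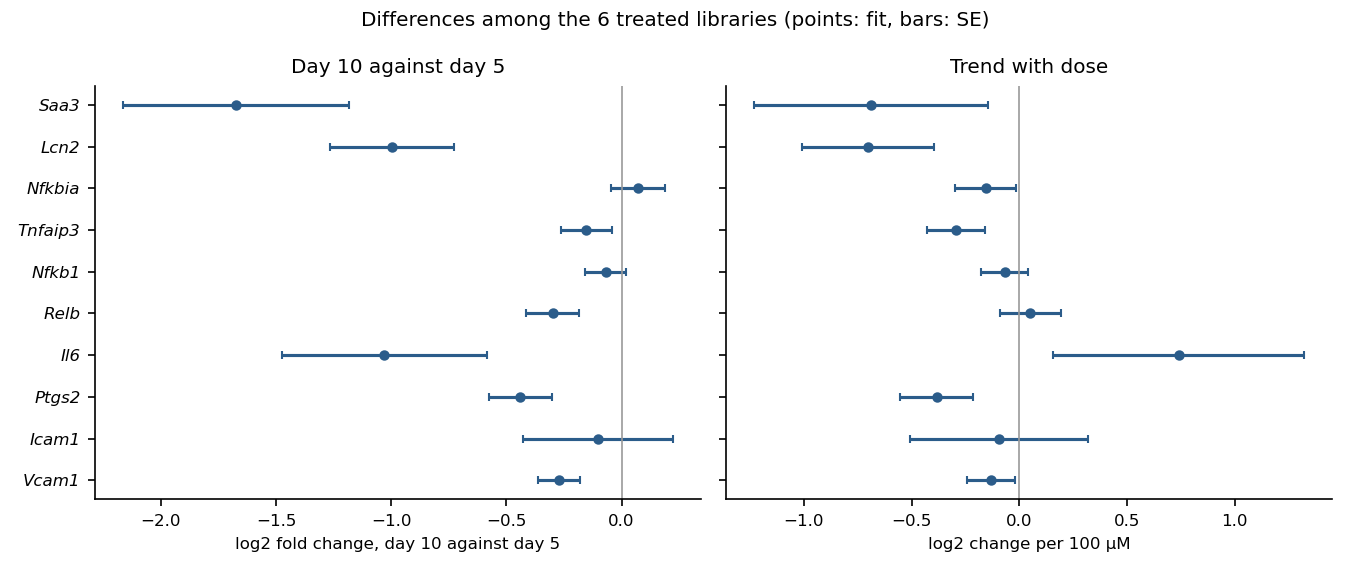
Fitted log2 differences among the 6 treated libraries for the 10 genes, for day 10 against day 5 on the left and per 100 μM of β-ecdysterone on the right. Points are edgeR estimates and bars are 1 SE. Saa3, Lcn2 and Il6 lie at −0.998 or below for day, and none of the 20 estimates passed an adjusted p of 0.05.

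The trend with dose was taken from the same model, per 100 μM. None of the 10 genes was called, and 0.006% of the 16664 genes tested (1 gene) were. At an unadjusted p under 0.05 only Lcn2 passed in edgeR and only Ptgs2 in DESeq2, which called none of the 10 either. With depth class as a covariate none of the 10 passed the unadjusted p, and their median trend was −0.08 instead of −0.14. The trend of Lcn2 was −0.70 (SE 0.31), that of Saa3 was −0.69 (SE 0.54), that of Ptgs2 was −0.38 (SE 0.17) and that of Tnfaip3 was −0.29 (SE 0.13), each with an edgeR adjusted p of 0.997. Il6 had a trend of 0.74 (SE 0.58) and Relb of 0.05 (SE 0.14). At 100 μM Saa3 was highest of the 3 doses on both days and 150 μM was lowest, so its values did not follow the order of the doses. Both libraries at 150 μM were among the deep ones and both at 100 μM among the shallow ones, so dose and depth cannot be told apart for this order. With depth class as a covariate the trend was −0.09 (SE 0.42) for Saa3 and −0.32 (SE 0.20) for Lcn2. In the comparison of 200 with 100 μM alone, Lcn2 was called lower at 200 μM (edgeR adjusted p = 0.0113), as were 0.0721% of all genes tested. Of the 4 libraries in that comparison B9 alone was deep.

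Whether the difference from 0 μM changed between the days was tested by an interaction term, with 1 library at 0 μM on each day. None of the 10 genes was called by edgeR or by DESeq2, and 0 of the 10 passed an unadjusted p of 0.05 in either. Over all genes 0.0112% of 17799 were called (2 genes). The interaction of Saa3 was −1.46 (SE 0.73, edgeR adjusted p = 0.648) and that of Lcn2 was −1.001 (SE 0.64, edgeR adjusted p = 0.726). The SEs of the 10 interactions ran from 0.17 to 0.73. Saa3 was not called at −1.46, so differences between the days well beyond an SE could also go undetected here.

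To place the 10 genes in their pathway, 9 lists with 164 further genes were drawn up, and 136 of these genes passed the filter on low counts. Treated and 0 μM libraries were compared at the limits used by the study, log2 differences larger than 1 together with an adjusted p below 0.05. Over all 16794 genes 5.98% were called lower and 13.4% higher. On the 9 lists together 34 of 136 genes (25%) were called lower and 13 (9.56%) higher, with a median log2 fold change of −0.26. The lists were chosen with results of these libraries known, so these shares are a description. With A-5 and B-4 in place of 0 μM 2.87% of all genes were called lower, with both added to 0 μM 2.96%, with A-5 alone 3.84% and with B-4 alone 3.31%, and the listed genes then called lower numbered 8, 19, 21 and 3. Folds of listed genes are from edgeR's quasi-likelihood test, each with an adjusted p under 0.05 where a gene is called.

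Of the NF-κB subunits, IκB proteins and IκB kinases, 12 of 13 genes were tested, 4 were called lower, 0 higher and 8 were not called, with a median of −0.50. Nfkb2, the gene of the p52 subunit, had 251 and 239 CPM at 0 μM and 95.6 to 122 CPM in treated cells (−1.19, SE 0.08). Nfkbie, the gene of IκBε, had 56.2 and 50.1 CPM and 13.1 to 18.0 CPM (−1.75, SE 0.12). Nfkbiz, which encodes IκBζ, a nuclear cofactor that Il6 and Lcn2 are known to depend on, had 133 and 141 CPM at 0 μM and 7.24 to 10.2 CPM in treated cells (−3.95, SE 0.11). Bcl3, a nuclear IκB protein as well, had 7.01 and 11.8 CPM and 0.388 to 1.56 CPM (−3.50, SE 0.36). Rela, the gene of p65, had 123 and 115 CPM and 63.6 to 74.8 CPM, and Rel had 38.8 and 37.6 CPM and 20.2 to 28.4 CPM. With fold changes of −0.76 (SE 0.07) and −0.62 (SE 0.11) both passed the p but not the fold limit, as did Tbk1 (−0.37, SE 0.12). The kinase genes Chuk (0.24, SE 0.13), Ikbkb (−0.08, SE 0.10), Ikbkg (−0.09, SE 0.11) and Ikbke (0.16, SE 0.13) and the inhibitor Nfkbib (−0.18, SE 0.16) passed neither. Nfkbid had no count in any library. With B-4 alone as the control Nfkbie and Bcl3 turned to 0.32 and 0.86, since B-4 had 12.6 and 0.467 CPM. Rel and Rela turned to 0.68 and 0.06, with 15.6 and 67.4 CPM in B-4. The fold change of Nfkbiz shrank to −0.48 with B-4 alone. Nfkb2 lost its call with A-5 and B-4 in place of 0 μM or added to it. Its weakest fold change over the untreated controls was −0.03.

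**Figure D4:**
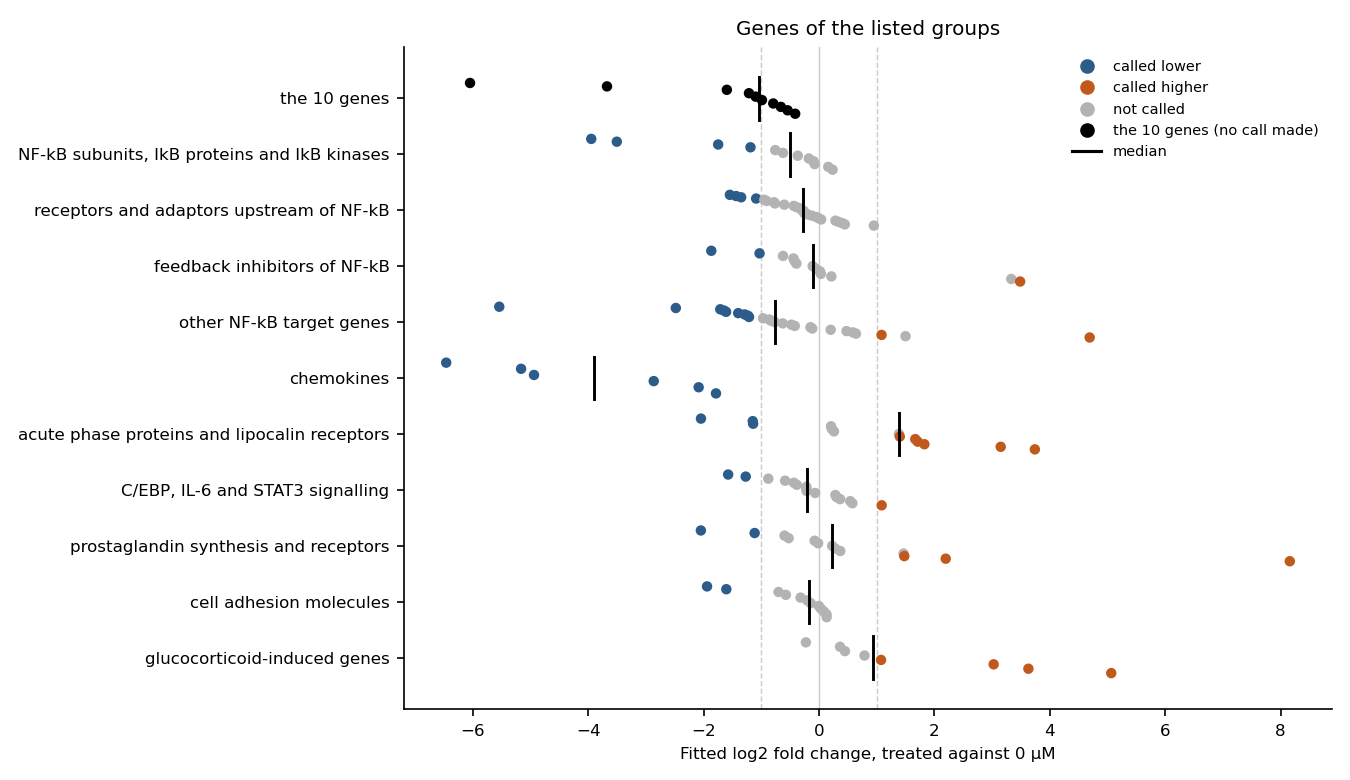
Fitted log2 fold change of treated against 0 μM for the 10 genes and for the genes of each list that passed the filter on low counts, with 1 point per gene. Blue and orange points were called lower and higher, grey points were not called, black points are the 10 genes, for which no call was made, short bars are medians and dashed lines mark −1 and 1. The 6 chemokines lie between −6.46 and −1.79, and the acute phase genes fall on both sides of 0.

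Of 27 receptors and adaptors upstream of NF-κB, 26 were tested, 4 were called lower and 0 higher. They were Tlr1 (−1.54, SE 0.22) and Cd14 (−1.35, SE 0.22), which sense bacterial lipids, Tnfrsf1b (−1.43, SE 0.11), a receptor of TNF, and Map3k14 (−1.09, SE 0.10), the kinase of the non-canonical pathway. The main TNF receptor gene Tnfrsf1a had 190.1 and 206 CPM at 0 μM and 178 to 225 CPM in treated cells. Map3k14 fell below the fold limit without the 0 μM library of day 10 (−0.93). Tlr1 had 0.267 CPM in B-4, and with B-4 alone as the control its fold change was 2.77.

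Of 15 feedback inhibitors, 13 were tested, 2 were called lower and 1 higher. Zc3h12a, which encodes an RNase that degrades Il6 mRNA, had 36.3 and 39.8 CPM at 0 μM and 8.50 to 15.2 CPM in treated cells (−1.87, SE 0.17), and Traf3 differed by −1.03 (SE 0.07). Both lost their calls with A-5 and B-4 in place of 0 μM. The weakest fold change of Zc3h12a over the untreated controls was −0.10. Il1rn, the gene of the interleukin 1 receptor antagonist, had 0.579 and 0.317 CPM and 3.26 to 9.78 CPM (3.49, SE 0.46).

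Of 34 other target genes of NF-κB, 25 were tested, 9 were called lower and 2 higher, with a median of −0.77. Nos2, the gene of inducible nitric oxide synthase, had 10.6 and 12.7 CPM at 0 μM and 0.132 to 0.368 CPM in treated cells (−5.54, SE 0.27). Ptx3, an acute phase pentraxin, had 307 and 361 CPM and 44.5 to 96.2 CPM (−2.48, SE 0.20), and Irf1 had 59.7 and 74.1 CPM and 18.3 to 23.0 CPM (−1.71, SE 0.11). Mmp13, a collagenase that osteoblasts make, was called higher, with 18.7 and 29.4 CPM at 0 μM and 269 to 1552 CPM in treated cells (4.69, SE 0.36). Mmp13 lost its call with A-5 and B-4 in place of 0 μM or added to it. Its weakest fold change over the untreated controls was 0.37. Ptx3 had 22.0 and 24.5 CPM in A-5 and B-4, below every treated library, and its fold change was 1.43 with these as the control. All 6 chemokine genes tested of 9 listed were called lower, with a median of −3.90. Ccl2 and Ccl7, which attract monocytes, differed by −5.16 (SE 0.25) and −4.94 (SE 0.29) and Ccl5 by −2.86 (SE 0.36), and Cxcl5 had 20 and 62 counts at 0 μM and 0 to 2 counts in treated cells. With B-4 alone as the control the fold change of Ccl2 was −0.33. That of Ccl7 stayed at −1.996 or below in every alternative.

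Of 16 genes of acute phase proteins and lipocalin receptors 13 were tested, 3 (C3, Serpina3g and Scarb1) were called lower, 6 were called higher and 4 were not called, with a median of 1.39. The orosomucoid genes Orm2 (0.460 and 0.508 CPM at 0 μM, 3.17 to 8.78 CPM in treated cells) and Orm1 (0.919 and 0.888 CPM, 4.68 to 10.7 CPM) rose by 3.74 (SE 0.43) and 3.15 (SE 0.32) on the log2 scale. Lbp, the gene of the lipopolysaccharide binding protein, had 11.8 and 25.9 CPM and 20.2 to 121 CPM (1.83, SE 0.56), and its call was lost without either 0 μM library. Serpina3g, a serine protease inhibitor, differed by −2.05 (SE 0.18). It had no count in B-4. Saa1 and Saa2, the liver paralogs of Saa3, had at most 0.286 CPM in the 0 μM and treated libraries. The lipocalin receptor gene Slc22a17 had 16.2 and 12.5 CPM at 0 μM and 15.2 to 19.6 CPM in treated cells (0.26, SE 0.14, not called), and Lrp2, which encodes megalin, was called higher at a low level, with 6 to 11 counts at 0 μM and 15 to 39 in treated cells (1.67, SE 0.48, edgeR adjusted p = 0.0193), and lost its call without either 0 μM library.

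Of 17 genes of C/EBP, interleukin 6 and STAT3 signalling, 16 were tested, 2 were called lower and 1 higher. Socs3, an inhibitor that STAT3 induces, had 81.1 and 67.9 CPM at 0 μM and 21.2 to 32.1 CPM in treated cells (−1.57, SE 0.14). Osmr, the oncostatin M receptor gene, differed by −1.27 (SE 0.19), but by −0.93 without the 0 μM library of day 10. Il6ra, the gene of the interleukin 6 receptor, had 14.7 and 16.8 CPM and 26.4 to 41.9 CPM (1.09, SE 0.19), and missed the fold limit without the library at 100 μM on day 10. Cebpb (−0.43, SE 0.25), Cebpd (−0.21, SE 0.33) and Stat3 (−0.22, SE 0.12) were not called. Cebpb had 7.57 CPM in A-5 and 15.9 CPM in B-4, and turned to 2.93 with these as the control.

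Of 16 genes of prostaglandin synthesis and its receptors, 13 were tested, 2 were called lower and 3 higher. Ptger4, a receptor gene for prostaglandin E2, differed by −2.05 (SE 0.38) and lost its call without the 0 μM library of day 10. Ptgfr, the receptor gene for prostaglandin F2α, had 30.4 and 21.4 CPM at 0 μM and 60.5 to 248 CPM in treated cells (2.20, SE 0.43). Ptgis, the prostacyclin synthase gene, differed by 1.48 (SE 0.42) at 1.41 CPM or less, and lost its call without the 0 μM library of day 5. Ptgds had 0 counts in both 0 μM libraries and 10 to 100 counts in treated cells, at least 13.3-fold higher than 3 counts per 0 μM library. Of 17 further adhesion molecules, 12 were tested and 2 were called, both lower. They were Itgb7 (−1.94, SE 0.18), the gene of an integrin subunit that binds VCAM-1, and Jam2 (−1.61, SE 0.35), whose call was lost without the 0 μM library of day 10.

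Of 8 genes induced by glucocorticoids, 4 were called higher, 0 lower and 4 were not called. Tsc22d3, which encodes the NF-κB inhibitor GILZ, had 86.4 and 113 CPM at 0 μM and 1114 to 1373 CPM in treated cells (3.63, SE 0.17). It had 111 CPM in A-5 and 1278 CPM in B-4. Fkbp5 rose by 3.03 (SE 0.13) and Zbtb16 by 5.07 (SE 0.37) on the log2 scale. Errfi1 differed by 1.08 (SE 0.19) and went under the fold limit without the 0 μM library of day 5 (0.94) or the library at 100 μM on day 5 (0.97). The summed level of the list was 774 to 828 CPM at 0 μM, 2419 to 3147 CPM in the treated libraries, 589 CPM in A-5 and 3198 CPM in B-4. The part of these genes in the differences of the NF-κB genes was not tested.

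**Figure D5:**
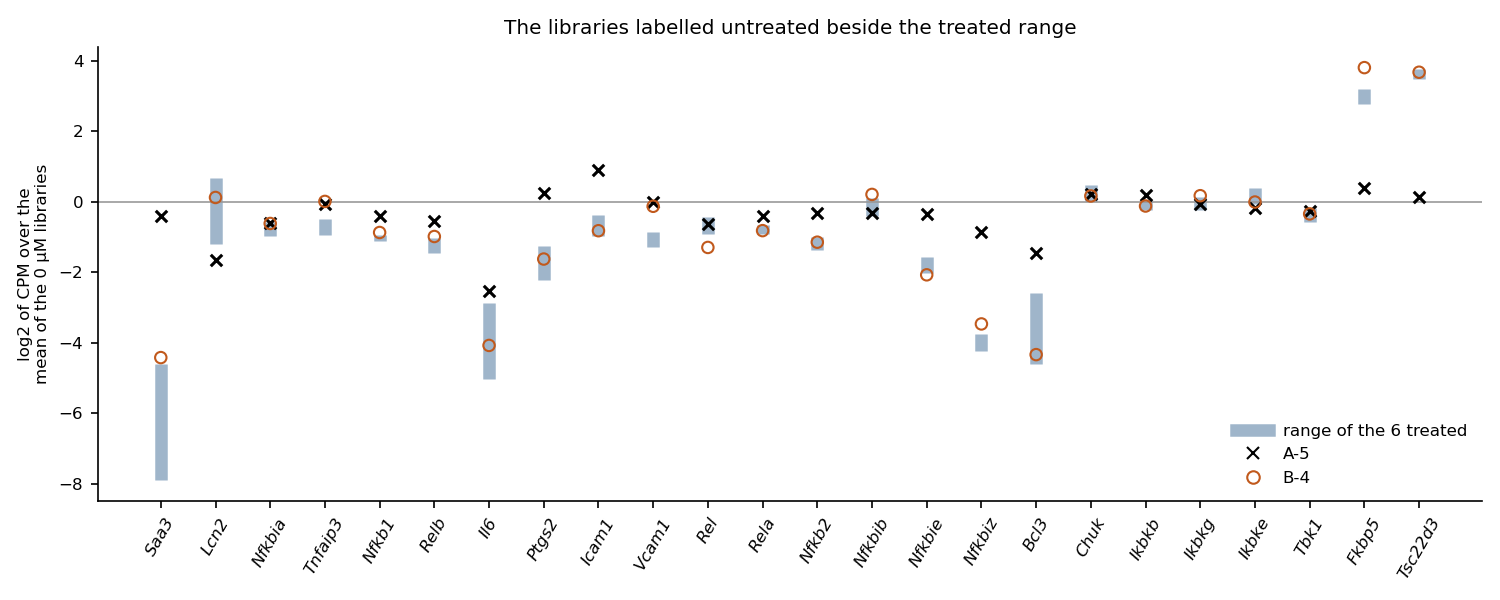
log2 of the CPM over the mean of the 0 μM libraries for the 10 genes, for the subunit, IκB and kinase genes with counts, and for Fkbp5 and Tsc22d3. Bars span the 6 treated libraries, crosses are A-5 and circles are B-4. B-4 lies within or next to the treated bar for Il6, Ptgs2, Nfkb2, Bcl3 and Tsc22d3, and near the line of the 0 μM libraries for Tnfaip3 and Vcam1.

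Finally, the genes most like Saa3 and Lcn2 over the 10 libraries were sought among the 10392 named genes whose mean level reached 5 CPM, by Pearson correlation of log2 CPM. The libraries share days, doses and depth, so these correlations are descriptions. For Saa3 they were Styk1 (0.987), Pik3cb (0.984), Yy1 (0.984), Stx2 (0.982) and Ccdc102a (0.981). Styk1, a receptor-like kinase gene, had 47.0 and 56.5 CPM at 0 μM, 49.9 CPM in A-5, 6.40 CPM in B-4 and 1.39 to 5.17 CPM in treated cells. Of the 10 genes Nfkb1 was most like Saa3 (0.952) and Lcn2 least (0.159). Within the 6 treated libraries alone the correlation of Saa3 and Lcn2 was 0.939. For Lcn2 the 5 genes were Medag (0.960), Cebpd (0.953), Nipsnap2 (0.942), Sin3b (0.914) and Actn1 (0.914). Cebpd, the gene of the acute phase factor C/EBPδ, had 77.1 and 96.5 CPM at 0 μM, 24.5 CPM in A-5, 119 CPM in B-4, and 144, 60.4 and 115 CPM on day 5 and 65.4, 46.3 and 55.7 CPM on day 10 at 100, 150 and 200 μM. Thus Cebpd, like Lcn2, was lowest in A-5 and highest at 100 μM on day 5. Without the untreated libraries 1 of the 5 genes for Saa3 and 0 of the 5 for Lcn2 stayed among the 5 most alike.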

How the data were processed

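The deposited table holds, for 10 libraries, raw counts per gene and the FPKM values that the authors computed. The submitters' processing notes name HISAT2 2.0.4 and GATK 3.2-2, and the counting program, the genome build and the annotation are not given in the sources used here. The table also holds the authors' comparisons of single libraries, which were not used. Columns were matched to libraries by the codes that the sample titles carry.

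Counts were tested with edgeR 4.0.16 (quasi-likelihood, TMM, filterByExpr) in R 4.3.3. Treated and 0 μM libraries were compared with day as a covariate, and days and doses were compared within the 6 treated libraries. CPM used TMM sizes over all 10 libraries, and log2 CPM used a prior count of 2. Alternatives were DESeq2 1.42.0, limma 3.58.1 on log2(FPKM + 1), other filters, scalings and controls, and each library left out. The fits were tested on simulated data. Gene positions came from GENCODE M21 (GRCm38) by Ensembl identifier. Named from each list were up to 4 called genes with the largest fold change, and all genes of the subunit list. Other genes (Tnfrsf1a, C3, Scarb1, Slc22a17, Lrp2, Saa1, Saa2, Cebpb, Cebpd, Stat3, Tyrobp, Cldn5, Cfd, Col1a1, Col1a2, Runx2, Il1a, Il1b and Tnf) fall outside this rule and were chosen after their values were seen (Cebpd is also among the genes most like a member). The 10 genes and the lists were chosen with earlier results of these data known.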

Additional observations from a re-analysis of the deposited data

How the results depend on the processing

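The 10 genes kept negative fold changes under most alternatives, with 9 to 10 negative when single libraries were left out. Where a 0 μM library was left out, the fold change was that of the other day alone, and the remaining 0 μM library was assumed to vary like the treated ones. The median difference of the 10 genes in log2 CPM was the same within the spread between libraries at a prior count of 0.5 (−1.06 at 2). The choice of control mattered most. With A-5 and B-4 replacing the 0 μM libraries, 8 listed genes were called lower instead of 34, with both added to them 19, with A-5 alone 21 and with B-4 alone 3, where the control is 1 library. Over all genes the share called lower went from 5.98% to 2.87%, 2.96%, 3.84% and 3.31%. Without the fold limit 59 were lower and 24 higher instead of 13, and over all genes 20.8% were lower and 22.6% higher. The limma fit on log2(FPKM + 1) called 7 listed genes higher. Over all genes it called 3.13% higher, against 13.4% in the main fit. Leaving out single libraries gave 31 to 36 lower and 9 to 14 higher. The cause of these shifts was not tested beyond the change of control.

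Among the 10 genes and the named listed genes called in either fit, the log2 fold change reversed with B-4 alone for Il6 (0.43), Ptgs2 (0.0534), Icam1 (0.27), Nfkbie (0.32), Bcl3 (0.86), Tlr1 (2.77), Traf3 (0.13), Nos2 (0.56), Ptx3 (1.37), Irf1 (0.0512), Ccl5 (2.61), Serpina3g (9.09, against 0 counts and so without meaning as a size), Osmr (1.12), Dmp1 (0.85), Orm1 (−0.0716), Il6ra (−0.46), Tsc22d3 (−0.0459), Fkbp5 (−0.78) and Cebpb (2.499). Rel (0.68) and Rela (0.06), called in neither fit, also changed sign. With A-5 alone it reversed for Lcn2 (1.36), Ptx3 (1.51) and Cebpb (3.56), and with both in place of 0 μM for Lcn2 (0.21), Tlr1 (0.18), Ptx3 (1.43), Serpina3g (0.32), Osmr (0.30) and Cebpb (2.93). Lcn2 ran from −0.87 to 0.12 when single libraries were left out. These ends are the estimates of day 10 alone and of day 5 alone.

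For day 10 against day 5, 0 of the 10 genes were called, and 2 under DESeq2 (2.7% of all genes lower, against 0.552%), 3 with every gene of at least 1 count kept (2.58%), 2 with dose as a block (1.36%), and 0 to 1 when single libraries were left out. For the trend with dose, 0 were called, 1 with every gene of at least 1 count kept, and 1 for 200 against 100 μM (0.0721% of all genes lower). For the interaction 0 were called under each alternative. Over single genes and alternatives, 1323 values stayed on their side of the threshold or, without a test, moved by less than the spread between libraries (uncalled values that changed sign are counted here), 114 lost a call, 11 gained one, 26 moved by more than that spread and 29 reversed. The labels give no replicate numbers, and days were paired by dose in the fit with dose as a block. Depth limited Il6, Icam1 and Saa3 most, with 4 to 111 counts in the treated libraries.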
